A study of Homo sapiens with 28 samples.

Results

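The 7 genes described here encode cytoplasmic tubulins with reads in a human embryonic kidney line, HEK 293T. These are the 3 alpha tubulins TUBA1A, TUBA1B and TUBA1C and the 4 beta tubulins TUBB, TUBB2A, TUBB2B and TUBB4B. They were taken by gene identifier (ENSG00000167552, ENSG00000123416, ENSG00000167553, ENSG00000196230, ENSG00000137267, ENSG00000137285 and ENSG00000188229 in that order), and they are 7 of the 24678 genes with exonic reads in the deposited counts. The family was chosen by identity with its read counts and shares of converted reads in view, and the rule set no threshold and no contrast. The values below therefore describe these genes, and the tests that follow were fitted and adjusted over all genes measured, not over the family. In 7 of 7 cases the chromosome of the reads was the chromosome of the gene in RefSeq (GRCh38.p14): 12 for the alpha tubulins, 6 for TUBB, TUBB2A and TUBB2B, and 9 for TUBB4B.

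Microtubules are hollow polymers of alpha and beta tubulin dimers, which are folded with the help of prefoldin, the CCT chaperonin and a set of tubulin cofactors. Proliferating cells draw on several near-identical genes for each subunit, and the messenger RNAs of these genes are known to be destabilised when free tubulin dimers accumulate, through recognition of the nascent protein by TTC5 and recruitment of the CCR4-NOT deadenylase. TUBA1B and TUBA1C are the broadly expressed alpha tubulins of dividing cells, TUBA1A is best known from developing neurons, TUBB and TUBB4B are broadly expressed beta tubulins, and TUBB2A and TUBB2B are known mainly from the nervous system.

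The reads of all 7 genes shifted together below, and the DNA just upstream is shown for the 4 with the most reads. Each line is 120 bases ending next to a RefSeq transcript start, on the strand of the gene, with capitals for 3 motifs on either strand: the TATA box core TATAA, the CCAAT box core CCAAT, and the GC box core GGGCGG. Matches of one motif can overlap, as in TUBA1B, and those of different motifs did not.
TUBB4B, chr9:137241167-137241286, plus strand: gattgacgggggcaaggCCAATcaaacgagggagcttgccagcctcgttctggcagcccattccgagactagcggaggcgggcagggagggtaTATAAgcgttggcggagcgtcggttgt
TUBA1B, chr12:49131396-49131515, minus strand: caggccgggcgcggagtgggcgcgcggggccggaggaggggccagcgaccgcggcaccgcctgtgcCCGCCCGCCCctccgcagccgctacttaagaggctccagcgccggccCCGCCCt
TUBA1C, chr12:49264962-49265081, plus strand: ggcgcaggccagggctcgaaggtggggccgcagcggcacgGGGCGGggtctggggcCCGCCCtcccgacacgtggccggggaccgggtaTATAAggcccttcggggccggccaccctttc
TUBB, chr6:30720232-30720351, plus strand: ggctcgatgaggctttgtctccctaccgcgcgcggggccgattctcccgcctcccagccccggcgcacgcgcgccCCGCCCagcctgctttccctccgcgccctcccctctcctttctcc
TUBA1C has 3 and TUBB 2 annotated starts in this table, of which 1 each is printed. Over the 10 annotated starts of the 7 genes, 3 windows held the TATA box core, 3 the CCAAT box core and 6 the GC box core. Among 35116 RefSeq windows of the same length the shares were 10.2%, 20.4% and 34.0%. A match is a description of the letters only.

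Cells of wild-type genotype received 100 µM 4-thiouridine (s4U) for 2 h, or none. New RNA takes up s4U, and a chemical treatment of the RNA then makes s4U positions read as C, so that T-to-C mismatches mark reads from RNA made during the labelling. Treatment was with NaIO4 and TFEA at pH 5.2, with iodoacetamide, or with OsO4 and NH3, and the unlabelled RNA was treated as well. Each of the 3 chemistries was applied after handling under drop-out conditions (DO) and after improved handling (IH), the latter meant to limit the loss of labelled RNA and of reads with mismatches. Each combination had 2 labelled libraries and 1 unlabelled library, 18 libraries in all, and the 10 libraries of 5 other chemistries were not analysed here. All are total RNA of one cell line. The labels do not say that replicates came from separate cultures, so p-values measure the spread between these libraries, which may be technical. Of 7 names fixed for this line, KRT18, NEFL, NEFM and VIM were among the transcripts with deposited rate constants, and PAX2, KRT8 and LHX1 were not. Of 5 blood and liver names 0 were. Absence there does not show absence of expression, since TUBB, with many reads, had no constant either. Labelled libraries held 892727 to 2735236 exonic gene reads under DO and 867400 to 2169913 under IH, and unlabelled ones 836654 to 1496878 and 1339683 to 4604325.

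Tubulin reads were scarcer in the IH libraries than in the DO libraries, with and without s4U. The 7 genes made up 0.697% ± 0.0261 (SD, n = 6) of exonic reads in labelled DO libraries and 0.210% ± 0.00672 (SD, n = 6) in labelled IH libraries. Unlabelled libraries had 0.563% ± 0.0255 (SD, n = 3) under DO, against 0.178% ± 0.00663 (SD, n = 3) under IH. In edgeR's quasi-likelihood fit, 7 of 7 genes fell under IH in labelled libraries at an adjusted p under 0.05, against 33.9% of the 12449 genes tested called lower. In unlabelled libraries 7 of 7 fell as well, against 30.7% called lower. The median log2 change of the 7 genes was -2.27 in labelled libraries, beside 0.44 for all genes tested, and -2.10 in unlabelled ones, beside 0.43. A fall under IH was not particular to tubulins. Among 907 other genes with at least 100 reads in each library, the median Pearson r with TUBA1B was 0.954. That r is of log2 CPM over the 18 libraries, so many well-counted genes moved with the handling in the same direction. Other signs of the libraries moved with the handling. Reads without a gene were 32.7% to 41.5% of a DO library and 17.5% to 25.7% of an IH library, and exonic reads of labelled libraries held 32.1 ± 0.851 (SD, n = 6) T positions under DO and 35.7 ± 1.85 (SD, n = 6) under IH. Their part in the lower tubulin counts was not tested. In bulk RNA, fewer cells of a type and less RNA per cell cannot be told apart.

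TUBB4B had the largest log2 change of the 7. Its 6 labelled DO libraries gave 841 to 1005 exonic CPM (counts scaled by library size with TMM), with a median of 908, and its 6 labelled IH libraries 109 to 135, with a median of 116. Every IH library lay below every DO library. The fitted log2 change was -2.93 ± 0.12 (SE; edgeR, adjusted p = 1.55e-14), and 82 of the genes tested had a lower value. Without s4U the TUBB4B levels were 505, 513 and 574 CPM under DO and 86.9, 117 and 105 CPM under IH, for iodoacetamide, TFEA and OsO4 in that order, a log2 change of -2.37 ± 0.16 (SE).

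TUBB, the beta tubulin with the most reads, gave 3492 to 3991 CPM in labelled DO libraries (median 3613) and 696 to 822 in labelled IH libraries (median 772). Its log2 change was -2.27 ± 0.09 (SE; edgeR, adjusted p = 1.55e-14) with s4U and -2.21 ± 0.13 without. TUBA1B, the alpha tubulin with the most reads, gave 2587 to 3046 CPM under DO (median 2782) and 569 to 654 under IH (median 632). Its log2 change was -2.17 ± 0.10 (SE; edgeR, adjusted p = 4.67e-14) with s4U and -1.92 ± 0.14 without. For both genes the 2 sets of labelled libraries stood far apart, and the spread within a set was small beside the gap.

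TUBA1C gave 597 to 883 CPM under DO (median 679) and 122 to 152 under IH (median 139), a log2 change of -2.34 ± 0.12 (SE). TUBA1A gave 266 to 385 CPM under DO (median 310) and 63.0 to 85.0 under IH (median 71.1), a log2 change of -2.13 ± 0.13 (SE). TUBB2A, the rarest in reads, gave 38.1 to 63.9 CPM under DO and 2.77 to 14.1 under IH, the latter from 4 to 24 reads per library, with a log2 change of -2.52 ± 0.25 (SE). TUBB2B moved least: 94.8 to 134 CPM under DO and 32.0 to 52.6 under IH, a log2 change of -1.45 ± 0.15 (SE), below which lay 2110 of the genes tested. For all 7 genes the 6 labelled IH libraries lay below the 6 labelled DO libraries, as they did for 25.3% of the genes tested. Library totals in place of TMM made the folds smaller, for example 5.16-fold in place of 7.60-fold lower for TUBB4B and 1.86-fold in place of 2.73-fold lower for TUBB2B, and moved the median of all genes from 0.44 to 0.995. That scaling also moved the share of called genes that were higher from 57.9% to 69.8%, and counting intronic with exonic reads gave 12.2-fold for TUBB4B. All 7 calls held under each of these settings.

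**Figure D1:**
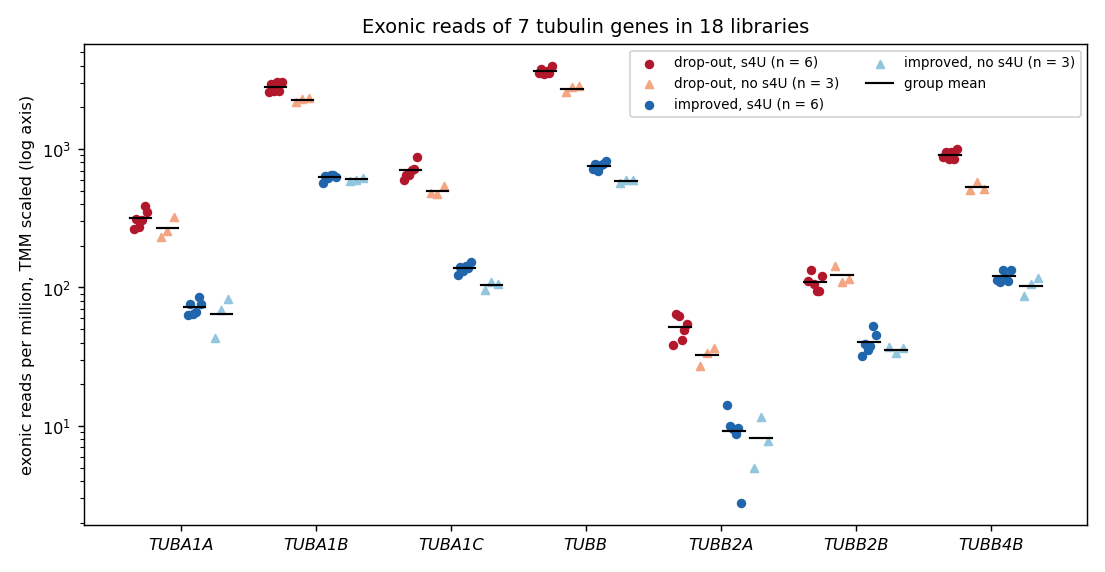
Exonic CPM (TMM scaled, log axis) of the 7 tubulin genes in each of the 18 libraries; circles are labelled and triangles unlabelled libraries, red for drop-out and blue for improved handling, and bars are group means. The blue points lie below the red points for each gene, with the smallest gap in TUBB2B (2.72-fold between labelled means) and the largest in TUBB4B (7.58-fold).

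The lower level was seen in each chemistry. With s4U the log2 change of TUBB4B, from the mean log2 CPM of each group, was -2.92 with TFEA, -3.03 with iodoacetamide and -2.82 with OsO4. For TUBA1B it was -2.15, -2.19 and -2.15, and for TUBB -2.23, -2.29 and -2.29. TUBB2A, with the fewest reads, varied most, from -2.05 with iodoacetamide to -3.32 with TFEA.

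Reads with and without mismatches differed unequally between the handlings. Unconverted TUBB reads went from a mean of 3186 CPM in labelled DO libraries to 594 CPM under IH, 5.37-fold lower. Converted TUBB reads, those with at least 1 T-to-C mismatch, went from 485 ± 39.2 CPM (SD, n = 6) to 167 ± 14.3 CPM (SD, n = 6), 2.91-fold lower. The corresponding folds were 4.75 and 2.46 for TUBA1B, 5.81 and 3.17 for TUBA1C, and 8.73 and 3.91 for TUBB4B. Converted reads of these 4 genes were thus also lower in CPM under IH, and unconverted reads were lower still. Their 6 DO and 6 IH labelled libraries did not overlap in converted CPM. Whether such a lack of overlap in converted CPM was unusual among all genes was not tested. The folds of converted reads include background mismatches. Without s4U, mean converted CPM of TUBB was 168 under DO and 37.1 under IH, 4.53-fold lower. Unlabelled converted CPM was 3.88-fold lower for TUBA1B, 6.27-fold for TUBA1C and 3.43-fold for TUBB4B. In the other 3 genes, with fewer converted reads, the handlings overlapped in converted CPM: 5 of 6 IH libraries lay below every DO library for TUBA1A, 1 of 6 for TUBB2A and 2 of 6 for TUBB2B.

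The label effect compares libraries with and without s4U under one handling. Under DO, only TUBB4B was called, against 0.12% of all genes called higher. Its 6 labelled libraries, at 841 CPM or more, lay above its 3 unlabelled ones, at 574 CPM or less. Labelled DO libraries also lay above unlabelled ones for TUBB, TUBA1B, TUBA1C and TUBB2A, none of them called in this fit. For how many of all genes this held was not counted. The log2 difference of TUBB4B was 0.78 ± 0.14 (SE; edgeR, adjusted p = 0.00806). The call was lost without the unlabelled iodoacetamide library (log2 0.83, edgeR adjusted p = 0.0787), without the unlabelled TFEA library (0.74, adjusted p = 0.113) and with intronic reads added (0.78, adjusted p = 0.0699), while the size of the difference stayed near 0.78. Other values were 0.70 ± 0.29 for TUBB2A, 0.49 ± 0.14 for TUBA1C, 0.43 ± 0.11 for TUBB, 0.30 ± 0.12 for TUBA1B, 0.23 ± 0.15 for TUBA1A and -0.15 ± 0.18 for TUBB2B (log2, SE), with edgeR adjusted p from 0.104 to 0.813. TUBB was called in 11 of the 28 alternative settings.

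The label calls depended on how the replicate numbers were treated. Under DO, labelled libraries of the same number deviated together: the correlation of their deviations was 0.571 to 0.686 in the 3 pairs of chemistries, beside 0.0443 to 0.062 in the 3 pairs under IH. The converted share of all exonic reads in the DO libraries was 15.9%, 15.1% and 17.4% in replicate 1 and 11.1%, 10.4% and 12.5% in replicate 2, for iodoacetamide, TFEA and OsO4. The fit above has no replicate term. With the replicate number of the labelled DO libraries as a block, an alternative chosen after seeing the data, 4 of 7 tubulins were called for the label under DO, beside 509 of the 12449 genes tested. They were TUBB4B (0.78), which was called without the block too, TUBB (0.42; edgeR, adjusted p = 1.38e-05), TUBA1C (0.49, adjusted p = 0.000138) and TUBA1B (0.30, adjusted p = 0.00658), with log2 differences close to those without the block. That fit also called TUBA1C (0.40; edgeR, adjusted p = 0.00974) and TUBB (0.37, adjusted p = 0.000377) under IH, beside 362 genes, although it has no replicate term there, since all groups share the estimate of the spread. The unlabelled groups have 1 library each, so the block takes no deviation out of them, and p-values of the label effect with the block are too small if those libraries deviate in the same way.

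Without the block, 0 of 7 genes were called for the label under IH in edgeR, where 0.225% of all genes were; 2 of the 7, TUBA1C and TUBB, had an unadjusted p under 0.05, and DESeq2 called 0 of 7. The log2 differences ran from 0.05 ± 0.11 (SE) for TUBA1B to 0.40 ± 0.14 for TUBA1C, with TUBB4B at 0.23 ± 0.14. Labelled replicates differed more beyond counting error under DO. Chi-square per degree of freedom was 4.85 to 8.68 in the DO groups and 2.13 to 2.32 in the IH groups. The fit shares 1 spread estimate across them, so a lack of calls under IH does not show that a label effect is absent there. The test of whether the label effect differed between handlings called 0 of the 12449 genes in edgeR, or 0% (914 genes had an unadjusted p under 0.05, and DESeq2 called 3 genes). For TUBB4B that difference was -0.55 ± 0.19 (SE; edgeR, adjusted p = 0.549, unadjusted p = 0.00871). With the block within DO it was -0.55 and was called (edgeR, adjusted p = 0.0156), beside 126 genes, so whether the label effect of TUBB4B differed between handlings depended on the block.

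The share of converted reads rose under IH in the 5 tubulin genes with at least 50 reads in each labelled library. TUBA1C had the highest exonic share among these 5, at 17.2% ± 2.95 (SD, n = 6) under DO, against 27.1% ± 3.03 (SD, n = 6) under IH. Its lowest, median and highest libraries were 12.4%, 17.9% and 20.9% under DO and 23.3%, 27.7% and 31.4% under IH, and the sets did not overlap. The gene rose by a log2 odds of 0.87 ± 0.21 (SE; edgeR, adjusted p = 0.000214). Its unlabelled libraries had 5.28% ± 1.64 (SD, n = 3) under DO, against 3.96% ± 0.0781 (SD, n = 3) under IH.

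TUBB4B went from 9.13%, 13.3% and 14.7% (lowest, median and highest library) to 19.1%, 24.4% and 27.01%, a log2 odds of 1.14 ± 0.22 (SE; edgeR, adjusted p = 4.11e-06). TUBB went from 11.5%, 13.1% and 15.2% to 20.1%, 21.8% and 23.9%, a log2 odds of 0.89 ± 0.16 (SE; edgeR, adjusted p = 2.70e-06). The IH libraries of both lay above the DO libraries. TUBB also had the highest background among the 5 genes tested: 6.16% ± 0.735 (SD, n = 3) of its unlabelled reads had a mismatch under DO and 6.31% ± 0.463 (SD, n = 3) under IH, where all exonic reads had 2.86% and 3.12%. The source of that background was not tested.

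TUBA1B had a low share throughout: 4.91%, 6.64% and 7.16% under DO and 9.44%, 11.9% and 12.6% under IH, again without overlap, a log2 odds of 0.95 ± 0.18 (SE; edgeR, adjusted p = 2.83e-06). Its unlabelled libraries had 2.85% ± 0.404 (SD, n = 3) and 2.78% ± 0.82 (SD, n = 3). TUBA1A had 3.47%, 5.21% and 9.92% under DO and 2.99%, 10.2% and 13.9% under IH, with overlapping sets. Its log2 odds of 0.77 ± 0.34 (SE; edgeR, adjusted p = 0.0314) was near the threshold. Without the IH iodoacetamide replicate 2 it was 0.23 (edgeR, adjusted p = 0.688), and the call was also lost in 6 of the other 11 omissions of a library, with values of 0.64 to 0.80 and edgeR adjusted p of 0.0504 to 0.0749. With limma it was 0.72 (adjusted p = 0.0591), and with at least 2 mismatches 1.18 (edgeR, adjusted p = 0.0591).

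The count of 5 of 5 genes called stands beside 81.9% of the 1992 genes tested called higher, and the median log2 odds of the 5 was 0.89, beside 1.09 for all genes tested. Shares did not overlap for 4 of the 5, beside 43.5% of genes; after subtraction of the matching unlabelled library TUBB4B overlapped, with up to 12.4 points under DO and from 11.9 points under IH. All exonic reads together had a converted share of 13.7% ± 2.80 (SD, n = 6) under DO, against 27.3% ± 3.35 (SD, n = 6) under IH, so that with HISAT-3N the IH share of TUBA1C was near that of all exonic reads and those of TUBA1A and TUBA1B were well below it. With STAR D all exonic reads had 23.7% ± 2.68 (SD, n = 6) under IH, and TUBA1C, at 16.9%, lay below that as well. TUBB2A and TUBB2B had fewer than 50 reads in at least 1 library and were not tested at that minimum. TUBB2B was tested in 2 of the alternatives, 1 of them with a minimum of 10 reads, and was called in neither, with a log2 odds of 0.53 to 0.58 (edgeR, adjusted p = 0.222 to 0.279). TUBB2B had 10.3% ± 4.32 (SD, n = 6) and 14.2% ± 4.85 (SD, n = 6), and TUBB2A 7.06% ± 3.86 (SD, n = 6) and 21.8% ± 15.8 (SD, n = 6), the latter with 2 of 4 reads in its highest library.

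**Figure D2:**
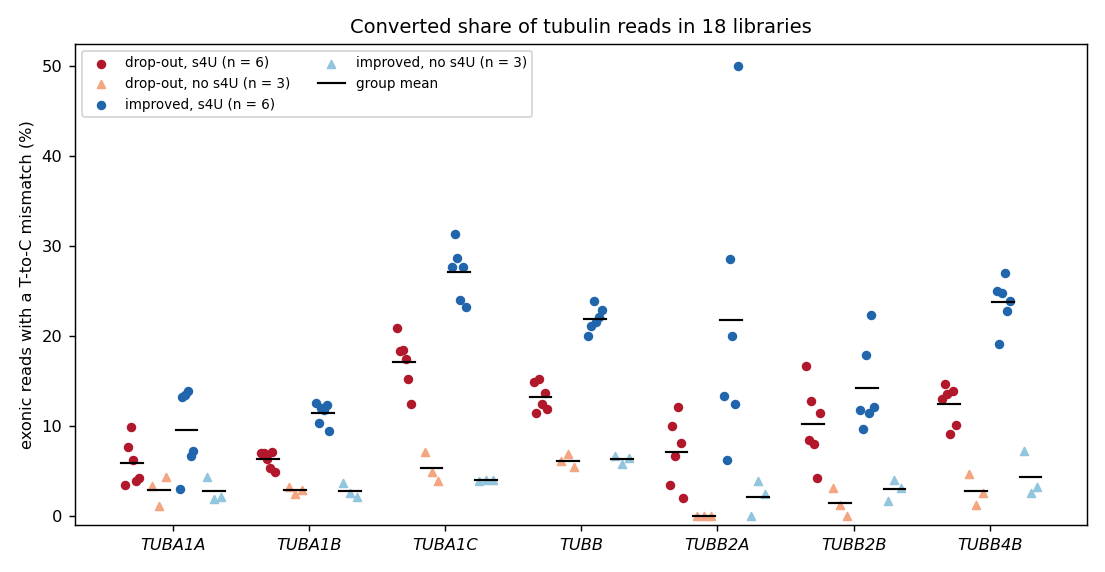
Converted share of exonic reads (%) for the 7 tubulin genes in each of the 18 libraries; circles are labelled and triangles unlabelled libraries, red for drop-out and blue for improved handling, and bars are group means. TUBA1C, TUBB, TUBB4B and TUBA1B have labelled blue points above all labelled red points, and unlabelled TUBB libraries lie near 6.16% to 6.31% on average.

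Among the alpha tubulins the converted share differed between TUBA1C and TUBA1B, and the gap depended on the aligner: IH shares were 27.1% and 11.4% with HISAT-3N but 16.9% and 14.02% with STAR D. With HISAT-3N, after subtraction of the matching unlabelled library, IH shares were 23.2 ± 3.06 points (SD, n = 6) for TUBA1C and 8.62 ± 1.37 points (SD, n = 6) for TUBA1B, and TUBA1C was higher in 6 of 6 libraries. Reads of the 2 genes held 38.3 ± 1.71 and 39.8 ± 1.49 T positions on average. Among reads with 30 to 49 T positions, the IH shares were 24.2% ± 5.05 (SD, n = 6) for TUBA1C and 11.2% ± 1.41 (SD, n = 6) for TUBA1B. TUBB stood between them at 15.6 ± 1.61 points (SD, n = 6), above TUBA1B in 6 of 6 libraries and below TUBA1C in 6 of 6. TUBA1C and TUBB4B, at 19.4 ± 4.34 points (SD, n = 6), were not ordered: TUBA1C was higher in 4 of 6 libraries. Among reads with 30 to 49 T positions TUBB4B had an IH share of 25.6% ± 4.36 (SD, n = 6), above the 24.2% of TUBA1C. TUBA1A and TUBA1B were not ordered in the background-subtracted share either, with TUBA1A higher in 3 of 6. In background-subtracted mismatches per 100 T positions, TUBA1B was higher in 5 of 6 IH libraries. With STAR D the IH share of TUBA1C also lay below those of TUBB, 17.8%, and TUBB4B, 19.7%, on average.

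The mean number of mismatches per converted read was higher under IH in all exonic reads, at 2.74 ± 0.575 against 1.93 ± 0.321 (SD, n = 6 each), and the libraries overlapped. In TUBA1B converted reads carried 1.87 ± 0.299 (SD, n = 6) under DO, against 2.71 ± 0.895 (SD, n = 6) under IH, and in TUBA1C 2.12 ± 0.334 and 2.58 ± 0.368, again with overlap between the handlings. With iodoacetamide the mean was not higher under IH in TUBB2B, at 1.33 against 1.51 under DO, or in TUBB2A, both with few reads. With TFEA the mean of TUBB2A was not higher under IH either, at 1.33 against 1.375 under DO. Reads with 3 or more mismatches made up 1.41% ± 0.45 (SD, n = 6) of TUBA1B reads under DO and 4.15% ± 1.81 under IH, and 4.97% ± 1.64 and 11.2% ± 3.93 of TUBA1C reads. Converted reads of unlabelled libraries had 1.01 to 1.08 mismatches on average in these 2 genes. These differences were not tested.

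The 3 chemistries were compared within IH. TUBB shares were 22.5% ± 0.559 with TFEA, 20.6% ± 0.77 with iodoacetamide and 22.7% ± 1.59 with OsO4 (SD, n = 2 each). TUBA1C shares were 25.5% ± 3.14, 29.5% ± 2.61 and 26.4% ± 3.34 in the same order, and TUBA1A shares 6.97% ± 0.429, 8.10% ± 7.24 and 13.7% ± 0.306. In edgeR 0 of the 5 tubulins tested and 0% of all 1992 genes were called in any of the 3 pairs, with 80, 75 and 41 genes at an unadjusted p under 0.05 for OsO4 against iodoacetamide, OsO4 against TFEA and TFEA against iodoacetamide. None of these 5 had an unadjusted p under 0.05, and limma on the log2 odds also called 0 genes. With the replicate block within DO, 16, 4 and 0 genes were called in edgeR for these pairs (100 had an unadjusted p under 0.05 in the last), 0 of them tubulins. The approximate 95% interval for TUBB, OsO4 minus iodoacetamide, ran from -0.38 to 0.74 in log2 odds, so that differences of that size were not excluded.

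Intronic reads were few, and their converted share differed by gene. Such reads often come from unspliced RNA, but their origin in these genes was not tested. In TUBA1C, whose annotated gene spans 46675 bases, 43.0% of 93 intronic reads of the labelled DO libraries were converted (95% Wilson interval 33.4 to 53.2) and 61.1% of 113 under IH (51.8 to 69.5). The exonic means were 17.2% and 27.1%. In TUBB 18.7% of 375 intronic reads (15.0 to 22.9) and 48.0% of 179 (40.8 to 55.3) were converted. In TUBA1B, by contrast, 5.88% of 170 intronic reads (3.23 to 10.5) and 6.52% of 46 (2.24 to 17.5) were, values within counting error of its exonic reads. Intervals cover counting error only, since reads are not independent molecules and libraries were summed. Single IH libraries differed widely. TUBA1C had 0 of 12 intronic reads converted in iodoacetamide replicate 1 and 14 of 17 in TFEA replicate 1. TUBB had 2 of 11 in iodoacetamide replicate 1 and 21 of 31 in OsO4 replicate 1. The intronic part of all reads was 2.02% under DO and 6.90% under IH for TUBA1C, and 0.92% and 0.655% for TUBA1B.

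**Figure D3:**
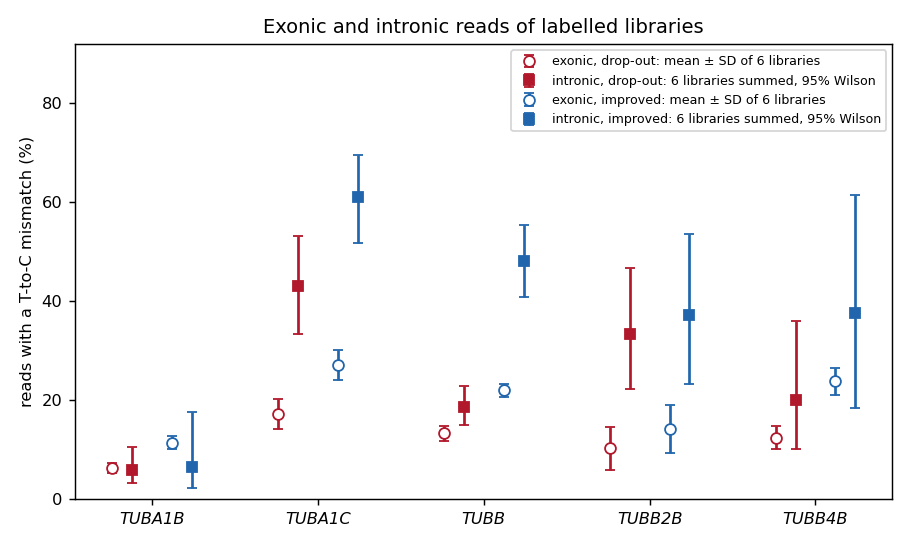
Converted share (%, vertical axis) of exonic and of intronic reads in labelled libraries for 5 tubulin genes; open circles are exonic reads (mean and SD of 6 libraries) and squares intronic reads (6 libraries summed, 95% Wilson interval), red for drop-out and blue for improved handling. Intronic squares stand above the exonic circles in TUBA1C (61.1% against 27.1% under improved handling) but not in TUBA1B (6.52% against 11.4%).

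The read counts and converted shares of the alpha tubulins, a family of similar genes, differed between aligners. The deposited counts hold the same libraries aligned with HISAT-3N, which allows for T-to-C changes and is used above, and with HISAT2 and STAR under settings called D, ML and VL. Over the 12 labelled libraries, STAR D gave 1.69 ± 0.0833 times (SD, n = 12) the TUBA1B reads of HISAT-3N, against 1.25 ± 0.0287 times for all exonic gene reads. For TUBA1A the ratio was 1.25 ± 0.0588 and for TUBA1C 1.31 ± 0.102. In limma, after centring on each library's median, 5 of 5 tubulins were called higher with STAR, against 44.4% of 1978 genes: TUBA1B by 0.49 ± 0.02 (log2, SE; adjusted p = 2.92e-09) and the other 4 by 0.05 to 0.15. The call of TUBA1A was lost at a minimum of 10 reads (0.04; limma, adjusted p = 0.0601), where TUBB2B was tested too and was called. Without centring 99.9% of the called genes were higher with STAR, in place of 50.9%.

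HISAT2 with setting VL split the alpha tubulin reads differently. It gave 0.745 ± 0.0269 times the TUBA1B reads and 1.90 ± 0.109 times the TUBA1C reads of HISAT-3N (SD, n = 12), and the 3 alpha genes together gave 0.952 ± 0.0233 times. TUBA1C made up 34.9% of the reads of the 3 genes with HISAT2 VL, 17.6% with HISAT-3N D and 14.8% with STAR D. The converted share moved too: with STAR D it was 7.51 ± 3.93 points lower for TUBA1C (lower in 12 of 12 libraries) and 2.42 ± 0.502 points higher for TUBA1B (higher in 12 of 12), while all exonic reads were 2.53 ± 1.24 points lower. Under IH, TUBA1C then had 16.9% ± 3.28 converted reads and TUBA1B 14.02% ± 1.33 (SD, n = 6), a smaller gap than the 27.1% and 11.4% of HISAT-3N. With HISAT2 VL the unlabelled libraries had 14.2% ± 1.71 converted TUBA1C reads and 12.2% ± 1.52 converted TUBB reads (SD, n = 6), against 3.96% to 5.28% and 6.16% to 6.31% on average with HISAT-3N. With HISAT2 VL and with STAR D the handling calls on counts held for 7 of 7 genes and those on the converted share for 5 of 5. The other settings of HISAT2 and STAR were not fitted for handling.

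**Figure D4:**
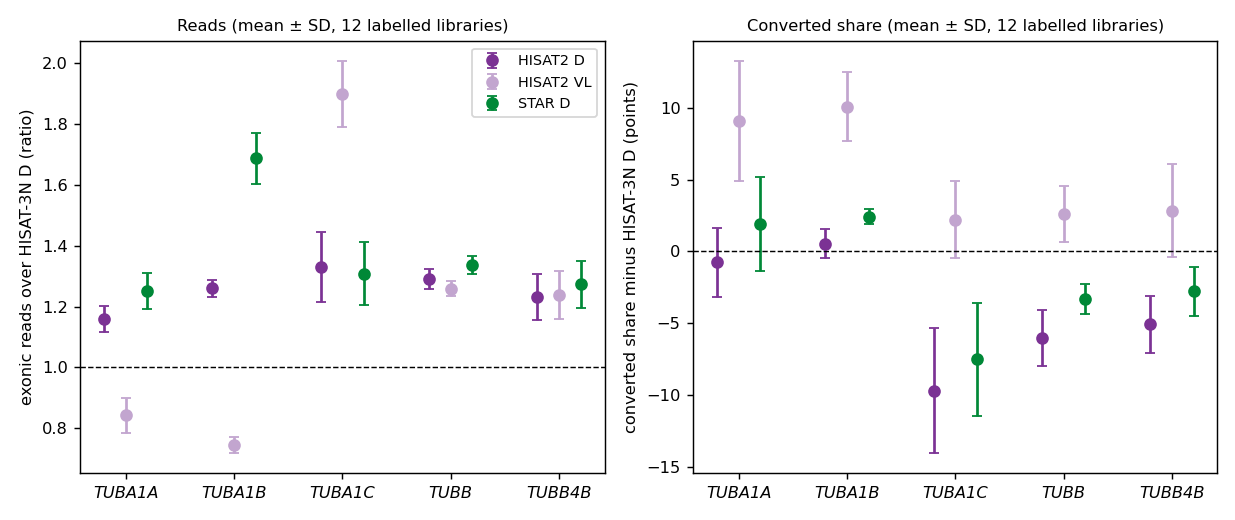
Exonic reads relative to HISAT-3N D (left, ratio) and converted share minus that of HISAT-3N D (right, percentage points) for 5 tubulin genes with HISAT2 D, HISAT2 VL and STAR D; points are means and bars SDs of the 12 labelled libraries, and dashed lines mark no difference. TUBA1B with STAR D (1.69) and TUBA1C with HISAT2 VL (1.90) stand apart on the left, and TUBA1C with STAR D (-7.51 points) on the right.

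Some reads were assigned to a pair of genes. With HISAT-3N 3316 reads carried both TUBA1A and TUBA1B as their gene and were counted for neither above; with STAR D there were 315. In labelled libraries the converted part of these HISAT-3N reads was 14.9% ± 6.37 (SD, n = 6) under DO, against 32.5% ± 9.61 (SD, n = 6) under IH, from 34 to 67 reads per IH library. These shares lie above those of reads given to TUBA1A alone (9.59%) or TUBA1B alone (11.4%) under IH, and unlabelled libraries had 8.81% ± 4.06 (SD, n = 3) and 7.20% ± 2.50 (SD, n = 3). The converted shares of TUBA1A and TUBA1B given above leave these reads out. Of the beta tubulins, 30 HISAT-3N reads carried both TUBB2A and TUBB2B, a further 82 carried both with another gene, 77 carried TUBB2A with another gene and 6 TUBB2B with another gene. None of these was counted for TUBB2A or TUBB2B above.

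The authors also deposited first-order degradation rate constants for each handling, with no stated time unit. In the authors' deposited table the IH constant of TUBA1B was above 17.5% of transcripts with TFEA, 17.8% with iodoacetamide and 23.4% with OsO4, and its DO constant above 33.7%, 35.1% and 24.9%. Its constant rose from DO to IH in all 3 chemistries of the authors' deposited table, from 0.0292 to 0.0491 with TFEA (adjusted p = 0.00393), from 0.0254 to 0.0395 with iodoacetamide (adjusted p = 0.0482) and from 0.0224 to 0.0576 with OsO4 (adjusted p = 0.000149). TUBB4B was called with TFEA, from 0.0566 to 0.116 (adjusted p = 0.00564), and with OsO4, from 0.0462 to 0.0964 (adjusted p = 0.0151), in the authors' deposited table, and not with iodoacetamide, from 0.0633 to 0.102 (adjusted p = 0.113).

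TUBA1C was called in the authors' deposited table with TFEA alone, from 0.0486 to 0.0938 (adjusted p = 0.00853). Its log2 change there was 0.54 with OsO4 (adjusted p = 0.209) and -0.17 with iodoacetamide (adjusted p = 0.755), and whether the chemistries differ was not tested. TUBA1A, with log2 changes of 0.22, 1.15 and 1.05 for TFEA, iodoacetamide and OsO4, was called in none, and neither was TUBB2B, with 1.58 for TFEA and 0.26 for OsO4, in the authors' deposited table. These calls stand beside 52.6%, 48.9% and 48.1% of transcripts called higher under IH with TFEA, iodoacetamide and OsO4. The median log2 change over all transcripts of the authors' deposited table was 1.18, 1.14 and 1.19, above the values of TUBA1B with TFEA (0.76) and iodoacetamide (0.64) and below its value with OsO4 (1.36). TUBB and TUBB2A had no constant there.

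**Figure D5:**
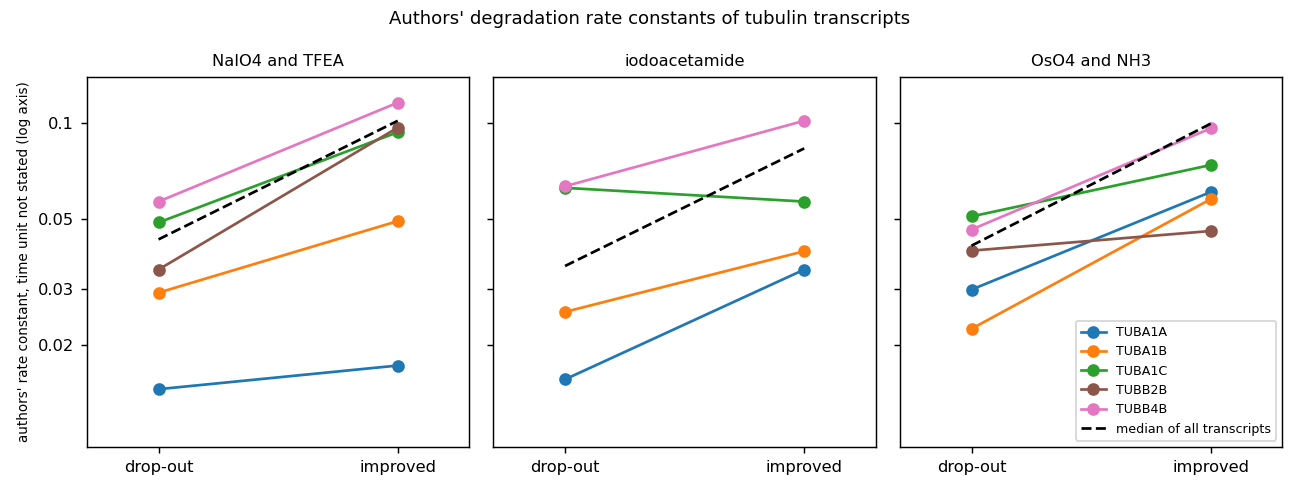
Degradation rate constants of the authors' deposited table (log axis, time unit not stated) under drop-out and improved handling for the tubulin transcripts listed, one panel per chemistry; each coloured line joins the 2 values of a gene and the dashed line the medians of all transcripts. TUBA1B lies below the dashed line in each panel and TUBA1C is at 0.0626 and then 0.0566 with iodoacetamide, a difference that was not called.

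Genes that work with tubulin could be followed only in the authors' deposited table, since the reference used here paired no other identifiers of the counts with symbols. Of 21 genes of tubulin folding, 7 had a constant with TFEA and 3 were called higher, 2 of 6 with iodoacetamide and 2 of 7 with OsO4; 0 were called lower. CCT7, a subunit of the CCT chaperonin, was called in all 3 chemistries of the authors' deposited table, with log2 changes of 1.65, 1.69 and 1.33 for TFEA, iodoacetamide and OsO4, and CCT3, another subunit, with TFEA (1.14) and iodoacetamide (1.10). Of 12 genes of tubulin mRNA autoregulation and CCR4-NOT, 2 of 2 measured were called with TFEA, 1 of 1 with iodoacetamide and 2 of 2 with OsO4. Those measured were CNOT1 and CNOT9, both of CCR4-NOT, while TTC5 and SCAPER, also on that list, had no constant. CNOT1, the scaffold of the deadenylase, had log2 changes of 0.87, 1.26 and 1.26 in the authors' deposited table.

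Among 23 genes of tubulin modification, 4 of 5 measured were called higher with TFEA, 0 of 1 with iodoacetamide and 3 of 6 with OsO4, including the tubulin deacetylase HDAC6 (2.60 with TFEA and 2.58 with OsO4, log2) and the polyglutamylase TTLL4 (2.05 and 1.97) in the authors' deposited table. Among 22 microtubule-associated genes the calls were 4 of 8, 3 of 9 and 4 of 10. MAP4, which binds along microtubules, was called in all 3 chemistries of the authors' deposited table, with log2 changes of 3.08, 2.92 and 2.53. Of 15 other tubulin genes, 1 had a constant with TFEA, 0 with iodoacetamide and 2 with OsO4, and TUBG1, the gamma tubulin that seeds microtubules, was called with OsO4 (1.57 in the authors' deposited table). The share of all transcripts called higher, 52.6%, 48.9% and 48.1%, is the background for these counts, and nothing particular to the lists was tested.

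As a description of pattern, the genes whose log2 CPM over the 18 libraries was most like that of TUBA1B and TUBB were ENSG00000089154 (Pearson r = 0.998 with TUBA1B) and ENSG00000067225 (r = 0.998 with TUBB), out of 907 genes. TUBA1B and TUBB had an r of 0.994 with each other, and the median over genes was 0.954 for TUBA1B and 0.946 for TUBB. All points share the split between DO and IH libraries.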

How the data were processed

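RNA from HEK 293T cells was sequenced as total RNA after conversion of s4U, and 18 libraries were used. The authors deposited read counts (n) for each combination of gene, exonic or intronic origin, T positions and T-to-C mismatches of a read, for each alignment. Per the submitters' processing notes the tools included cutadapt, HISAT2, STAR, HISAT, Picard, HTSeq and DESeq2 on GRCh38; versions and settings are not given in the sources used here. The rate constants deposited by the authors are treated as a score without a time unit. Their deposited log2 fold changes, which lie within 0.352 of the log2 ratio of IH over DO constants, and their deposited adjusted p-values are given as they stand.

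Exonic HISAT-3N counts were summed per gene and library, leaving out reads without a gene (32.7% to 41.5% of a DO library and 17.5% to 25.7% of an IH library). Handling and label effects were fitted over all 18 libraries in 12 groups with edgeR 4.0.16 (quasi-likelihood test, filterByExpr, TMM scaling, R 4.3.3), with Benjamini-Hochberg adjustment over all genes tested and a threshold of 0.05. The converted share, with a read converted at 1 or more mismatches, was tested in edgeR with converted and unconverted counts for genes with at least 50 reads in each of the 12 labelled libraries, and effects are log2 odds. Aligners were compared with limma 3.58.1 on log2 counts plus 0.5, centred per library. Alternatives, among them DESeq2 1.42.0, other scalings, filters, aligners, mismatch minimums and leaving out each library, are given in the closing section. The fits were tested on simulated data.

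The members and the gene lists were chosen with earlier results of these data known. Promoters and positions are from RefSeq (GRCh38.p14). The genes with the most similar pattern were those with the highest Pearson r of log2 CPM over 18 libraries, among genes with at least 100 reads in each. Other genes named are list members with deposited constants. Over 15 pairs of labelled groups the correlation of same-numbered deviations ran from -0.0319 to 0.686, with 3 above 0.1, the 3 pairs within DO. The main fits have no replicate term. A replicate block over all labelled libraries and, chosen after seeing the data, blocks within DO and within each handling are given as alternatives.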

Additional observations from a re-analysis of the deposited data

How the results depend on the processing

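Of 1488 values for single tubulin genes under an alternative setting, 1409 kept their direction and their side of the threshold, 13 lost a call, 26 gained one and 40 changed sign. The lower counts under IH were called for 7 of 7 genes in every alternative run, with and without s4U. With s4U under DO, 2 tubulin genes were called with DESeq2, RLE scaling, no filter, HISAT2 VL or the replicate block, 4 with the replicate block within DO or within each handling (both chosen after seeing the data), 0 with intronic reads added, and 0 to 4 when 1 library was left out. The genes called there, 27 in all, became 44 with DESeq2, 47 with library totals, 97 without a filter, 75 with the replicate block, 509 with the block within DO, 457 with that within each handling and 9 to 208 without 1 library. Under IH, 28 genes became 50 without a filter, 16 with HISAT2 VL, 8 with STAR D, 362 with the block within DO and 329 with that within each handling (2 tubulin genes each) and 13 to 57 without 1 library (0 to 1 tubulin genes). The interaction called 3 genes with DESeq2, 10 without a filter, 3 with the replicate block, 126 with the block within DO and 108 with that within each handling (1 tubulin gene each) and 0 to 17 without 1 library. For the converted share, a minimum of 200 reads left 2 tubulin genes and 308 genes called, a minimum of 10 reads gave 3527 genes (TUBB2B tested and not called) and added intronic reads 2448. For OsO4 against iodoacetamide 1 gene was called with HISAT2 VL and 1 with the replicate block, and for OsO4 against TFEA 1 with HISAT2 VL. The block within each handling called 27, 11 and 3 genes for OsO4 against iodoacetamide, OsO4 against TFEA and TFEA against iodoacetamide, and that within DO 16, 4 and 0. Both changed no call of a tubulin gene on handling or the converted share. The aligner comparison called 3900 genes at a minimum of 10 reads, without TUBA1A.

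Signs changed only among values that were not called. The interaction with library totals was 0.081 for TUBA1A, 0.022 for TUBA1C and 0.054 for TUBB, and 0.023 for TUBB2A with HISAT2 VL. For OsO4 minus iodoacetamide, TUBA1C was 0.47 with at least 2 mismatches and 0.25 with STAR D, and with HISAT2 VL TUBB was -0.050 and TUBB4B -0.087. For OsO4 minus TFEA, HISAT2 VL gave -0.25 for TUBA1B, -0.070 for TUBA1C and -0.029 for TUBB, and at least 2 mismatches gave -0.081 for TUBB4B. For TFEA minus iodoacetamide, TUBA1A was 0.018 with limma and 0.22 with HISAT2 VL, TUBA1B 0.022 with at least 2 mismatches and 0.28 with HISAT2 VL, TUBA1C 0.067 with at least 2 mismatches and 0.076 with STAR D, and with HISAT2 VL TUBB was -0.021 and TUBB4B -0.14. Leaving out 1 library gave label effects of -0.18 to 0.012 for TUBB2B under DO and, under IH, of -0.050 to 0.34 for TUBA1A and -0.25 to 0.52 for TUBB2A, and an interaction of -0.27 to 0.079 for TUBA1A. It gave, for OsO4 minus iodoacetamide, -0.092 to 0.23 for TUBA1B; for OsO4 minus TFEA, -0.059 to 0.37 for TUBA1B, -0.12 to 0.23 for TUBA1C and -0.072 to 0.11 for TUBB; and for TFEA minus iodoacetamide, -1.03 to 1.24 for TUBA1A, -0.30 to 0.13 for TUBA1B and -0.13 to 0.37 for TUBB4B. The cause was not tested. Reads limit TUBB2A and TUBB2B most, with 4 to 24 and 34 to 130 exonic reads per labelled IH library.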
